A study of Mus musculus with 7 samples.

Results

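The cathepsins described here are 9 genes that encode lysosomal proteases: Ctsa, Ctsb, Ctsc, Ctsd, Ctsh, Ctsk, Ctsl, Ctss and Ctsz. They were chosen by symbol from 24964 gene symbols measured by RNA sequencing in whole mouse uterus, and all 9 were present. The libraries came from mice 12 weeks old, recorded as in diestrus. There were 3 control libraries of genotype Pgrcre/+, numbered 1, 2 and 4, and 4 libraries of genotype Pgrcre/+Foxl2LsL/+, numbered 1 to 4 and called Foxl2-LSL here. All 7 libraries thus carried 1 Pgr allele with Cre recombinase, which is expressed where the progesterone receptor gene is active, so the controls carry that allele too. FOXL2, whose overexpression the title names, is a transcription factor of the forkhead family. Nothing in the labels says whether an animal gave more than 1 library, so the p-values measure the spread between these libraries.

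Cathepsins are made as inactive precursors, carried to the lysosome mostly by mannose 6-phosphate receptors, and activated in its acid interior, where they break down proteins taken up by the cell or delivered by autophagy. Most are cysteine proteases of the papain family, cathepsin D is an aspartic protease, and cathepsin A is a serine carboxypeptidase. Cystatins and related proteins inhibit the cysteine members. In the uterus, cathepsins are known from the epithelium, glands, stroma and leukocytes, and several change with steroid hormones and around implantation.

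Many lysosomal genes carry an E-box, the motif CACGTG, near their start, which the transcription factor TFEB and its relatives can bind. RefSeq promoter windows (250 bases before to 50 after the start, GRCm38.p6) were found for 7 of the 9 members, in 8 windows. CACGTG, searched on both strands, lay in windows of Ctsa, Ctsd and Ctsl, against 7.15% of all 32851 windows. The stretch before the start in the Ctsl window, chr13:64370521-64370770 on the minus strand, lies inside the gene as GENCODE M21 places it. The longer form TCACGTG, which contains CACGTG, lay in windows of Ctsa and Ctsd, against 3.77% of all windows. A still longer form, named the CLEAR element, lay in 0 of the 8 member windows and in 0.33% of all windows. The stretches before the start of Ctsd and Ctsa are shown because both hold TCACGTG while their transcripts went in opposite directions. Capitals mark CACGTG, and each stretch runs 5′ to 3′ on the strand of the gene. The Ctsd stretch is chr7:142387828-142388077 on the minus strand, and GENCODE M21 places the outermost start of the gene inside it. The Ctsa stretch is chr2:164833523-164833772 on the plus strand, before one of its RefSeq starts and inside the gene as GENCODE M21 places it. The other Ctsa stretch, chr2:164832622-164832871, lies just before the outermost start and holds no CACGTG.
Ctsd: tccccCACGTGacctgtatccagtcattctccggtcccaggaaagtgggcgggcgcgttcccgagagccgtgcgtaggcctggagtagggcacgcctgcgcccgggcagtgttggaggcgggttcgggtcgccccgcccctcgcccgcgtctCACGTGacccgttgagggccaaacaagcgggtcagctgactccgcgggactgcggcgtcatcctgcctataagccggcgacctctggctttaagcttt
Ctsa: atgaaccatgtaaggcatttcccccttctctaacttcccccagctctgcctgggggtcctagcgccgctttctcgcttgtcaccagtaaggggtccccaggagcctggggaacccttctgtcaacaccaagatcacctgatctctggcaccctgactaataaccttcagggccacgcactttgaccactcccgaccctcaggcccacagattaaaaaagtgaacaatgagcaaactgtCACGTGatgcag
The forkhead motif TGTTTAC, searched in the same way, was in none of the 8 member windows and in 3.65% of all windows. These matches describe letters in a window and not binding.

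Levels are in FPKM, the fragments on a gene scaled by its length and by the fragments of the library. Comparisons of levels between genes rest on the deposited lengths, which run from 1360 bases for Ctss to 11061 for Ctsc among the members. A value with ± is the mean and SD of 3 controls or of 4 Foxl2-LSL libraries. Foxl2 itself did not separate the groups (12.7 to 17.2 FPKM in Foxl2-LSL libraries and 11.1 to 19.3 in controls; log2 fold change 0.06, adjusted p 0.818 in limma), so every direction is given for the libraries as labelled. Control 4 stood apart from the other controls for some genes: 56 of 13334 tested genes (0.42%) were at least 3-fold higher there than in both other controls on FPKM + 1, and Ctsd was one of them. The 11 markers of epithelium, 11 of stroma and 9 of smooth muscle were all above the filter on low values, as whole uterus should give. The 4 globin genes were listed at 0 in all 7 libraries.

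Of the 9 cathepsins, 4 were higher (Ctsa, Ctsb, Ctsc and Ctsh) and 3 were lower (Ctsd, Ctsk and Ctsz) in Foxl2-LSL uterus, and Ctsl and Ctss did not pass the test. The family therefore did not move in 1 direction. The largest change was the fall of Ctsd, from 829 ± 688 to 194.5 ± 21.7 FPKM, and the largest rise was that of Ctsh, from 66.1 ± 14.4 to 101 ± 10.9 FPKM. Genes with a mean of at least 1 FPKM were tested with limma on log2(FPKM + 1), with Benjamini-Hochberg adjustment over all 13334 tested genes and a threshold of 0.05, and all 9 members passed that filter. Across all tested genes 16.7% were called higher, 23.9% lower and 40.6% in either direction. The groups did not overlap for 7 of the 9 members, 4 higher and 3 lower, against 47.6% of tested genes in either direction, 19.7% higher and 27.9% lower. The median log2 fold change was -0.23 over the 9 members and -0.05 over all tested genes. The call held for Ctsd and Ctsz in all 19 alternative analyses and for Ctsh in all but the one with the replicate number as a block, where 0 members were called higher and 2 lower (limma). The calls of Ctsa, Ctsb, Ctsc and Ctsk each depended on single libraries, as given beside them.

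**Figure D1:**
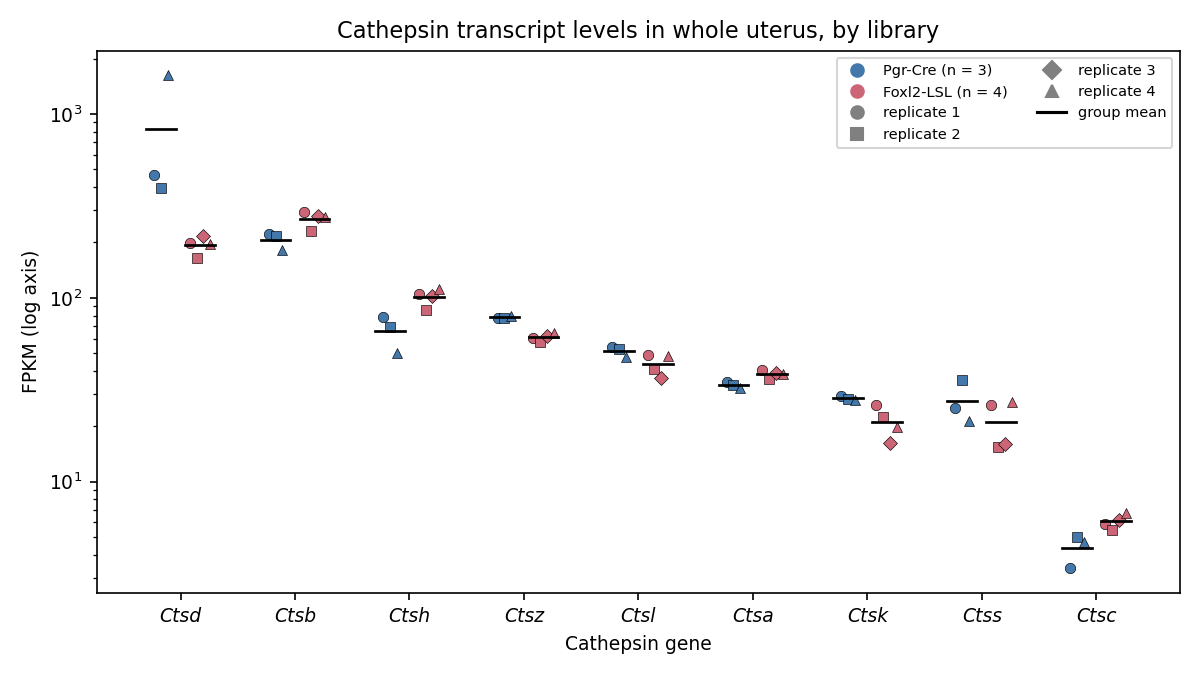
FPKM (log axis) of the 9 cathepsins in each of the 3 Pgr-Cre controls (blue) and 4 Foxl2-LSL libraries (red), with the replicate number as the symbol and the group mean as a black line. Control 4 lies at 1623 FPKM for Ctsd, far above the other controls, while the groups overlap for Ctsl and Ctss alone.

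Ctsd encodes cathepsin D, the main aspartic protease of the lysosome (chromosome 7, 142375911 to 142388038, minus strand, GRCm38). Its levels were 468, 396 and 1623 FPKM in controls 1, 2 and 4, and 199.6, 165, 217 and 197 FPKM in Foxl2-LSL libraries 1 to 4. Every Foxl2-LSL library lay below every control, and the Foxl2-LSL libraries were close together, whereas control 4 was 3.47 times control 1 on FPKM + 1. On the log2 scale Ctsd changed by -1.79 (SE 0.44, 95% interval -2.82 to -0.76; limma, adjusted p 0.0156). An exact permutation test over libraries, two-sided, gave 0.0571, the smallest p that 3 against 4 allow, for Ctsd and for each of the other 6 members whose groups did not overlap. Without control 4 the log2 fold change was -1.15 with an adjusted p of 0.000860 (limma), so the fall was smaller in size and still past the threshold. Between 15384 and 208068 fragments lay on Ctsd in each library, so counting error was at most 0.806% (coefficient of variation).

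Cathepsin A, the product of Ctsa, trims the carboxyl ends of peptides and holds the sialidase NEU1 and the beta-galactosidase GLB1 in a stable complex (chromosome 2, 164832873 to 164841032, plus strand, GRCm38). Ctsa was at 34.8, 33.4 and 32.2 FPKM in controls and at 40.2, 36.1, 39.0 and 38.3 FPKM in Foxl2-LSL libraries. The groups did not overlap, but the rise was small: log2 fold change 0.19 (SE 0.07, 95% interval 0.04 to 0.35; limma, adjusted p 0.0474). The call was lost when any library but Foxl2-LSL 2 was left out, with adjusted p of up to 0.120 in limma. The partners of cathepsin A were not called: Neu1 was at 14.6 ± 2.86 and 16.0 ± 1.52 FPKM, and Glb1 at 16.1 ± 0.968 and 17.4 ± 1.26 FPKM.

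The cysteine cathepsins B, C, H and Z act mainly as exopeptidases, which remove residues from the ends of proteins. Of these 4, Ctsb, Ctsc and Ctsh were called higher and Ctsz lower. Among all tested genes 16.7% were called higher and 23.9% lower. Ctsb (chromosome 14, 63122462 to 63145923, plus strand, GRCm38) encodes cathepsin B, which removes dipeptides from the carboxyl end and also cuts within chains. Ctsb was at 223, 216 and 182 FPKM in controls and at 294, 231, 279 and 276 FPKM in Foxl2-LSL libraries. Control 4 was the lowest of all and Foxl2-LSL 2 the lowest of its group, just above the controls. Ctsb had a log2 fold change of 0.38 (SE 0.11, 95% interval 0.12 to 0.64; limma, adjusted p 0.0293). The call was lost without control 2, without control 4 (log2 fold change 0.29, adjusted p 0.0809 in limma), or without Foxl2-LSL 1, 3 or 4.

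Ctsh (chromosome 9, 90054152 to 90076089, plus strand, GRCm38) encodes cathepsin H, an aminopeptidase. Its levels were 78.6, 69.5 and 50.4 FPKM in controls and 104, 86.0, 102 and 112 FPKM in Foxl2-LSL libraries. All Foxl2-LSL libraries were above all controls, and control 4 was again the lowest. Its log2 fold change was 0.62 (SE 0.16, 95% interval 0.26 to 0.99; limma, adjusted p 0.0169), and 0.44 without control 4 with an adjusted p of 0.0234 (limma). With the replicate number as a block, on the libraries numbered 1, 2 and 4, Ctsh had a log2 fold change of 0.62 and an adjusted p of 0.0809 (limma).

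Ctsc (chromosome 7, 88278085 to 88310888, plus strand, GRCm38) encodes cathepsin C, a dipeptidyl peptidase that activates the granule proteases of leukocytes. It had the lowest FPKM of the 9, on the longest deposited length (11061 bases). Its levels were 3.38, 4.99 and 4.66 FPKM in controls and 5.87, 5.48, 6.20 and 6.72 FPKM in Foxl2-LSL libraries. Control 2 came within 1 FPKM of Foxl2-LSL 2, and the groups did not overlap. Ctsc had a log2 fold change of 0.41 (SE 0.12, 95% interval 0.13 to 0.70; limma, adjusted p 0.0318). Leaving out control 1 gave 0.28 with an adjusted p of 0.0644 (limma), and the call was also lost without Foxl2-LSL 1, 3 or 4.

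Ctsz (chromosome 2, 174427493 to 174439039, minus strand, GRCm38) encodes a carboxypeptidase also called cathepsin X, and it alone of these 4 fell. Its levels were 77.8, 78.0 and 79.3 FPKM in controls and 60.7, 57.3, 61.7 and 63.9 FPKM in Foxl2-LSL libraries. It was the most even member within controls, and control 4 did not stand apart. Ctsz had a log2 fold change of -0.36 (SE 0.06, 95% interval -0.51 to -0.21; limma, adjusted p 0.00394), and its adjusted p was at most 0.0382 over all 19 alternatives (limma).

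Cathepsins K, L and S are endopeptidases, which cut within protein chains. Each had a negative log2 fold change, and Ctsk alone was called lower. Ctsk (chromosome 3, 95499256 to 95509362, plus strand, GRCm38) encodes cathepsin K, which can cut the triple helix of collagen and is best known from osteoclasts. Ctsk was at 29.2, 28.0 and 27.9 FPKM in controls and at 26.0, 22.5, 16.2 and 19.9 FPKM in Foxl2-LSL libraries. The controls were nearly alike and the Foxl2-LSL libraries spread widely, with number 3 lowest. The log2 fold change was -0.42 (SE 0.14, 95% interval -0.76 to -0.09; limma, adjusted p 0.0467). The call was lost when any library but Foxl2-LSL 1 was left out, and under median centring and quantile normalization (adjusted p 0.0713 and 0.0621 in limma).

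Ctss (chromosome 3, 95526786 to 95556403, plus strand, GRCm38) lies 17423 bases from Ctsk and encodes cathepsin S, which cuts the invariant chain of MHC class II in antigen-presenting cells. It was at 25.3, 35.6 and 21.4 FPKM in controls and at 26.2, 15.4, 16.1 and 27.1 FPKM in Foxl2-LSL libraries. The groups overlapped, with Foxl2-LSL 2 and 3 lowest and control 2 highest. For Ctss the log2 fold change was -0.37 (SE 0.25; limma, adjusted p 0.268), with a wide 95% interval of -0.95 to 0.21. The log2 ratio of Ctsk to Ctss within a library was 0.08 ± 0.37 among controls and 0.02 ± 0.39 in the Foxl2-LSL group (exact permutation test, two-sided, p 0.800).

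Ctsl (chromosome 13, 64359337 to 64370890, minus strand, GRCm38) encodes cathepsin L, a broad endopeptidase of most cells. Its levels were 53.8, 52.6 and 47.6 FPKM in controls and 49.0, 41.1, 36.7 and 48.2 FPKM in Foxl2-LSL libraries. Foxl2-LSL 1 and 4 lay above control 4, so the groups overlapped. The log2 fold change was -0.23 (SE 0.11, 95% interval -0.50 to 0.03; limma, adjusted p 0.133), and no alternative passed the threshold (adjusted p 0.0866 to 0.305).

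**Figure D2:**
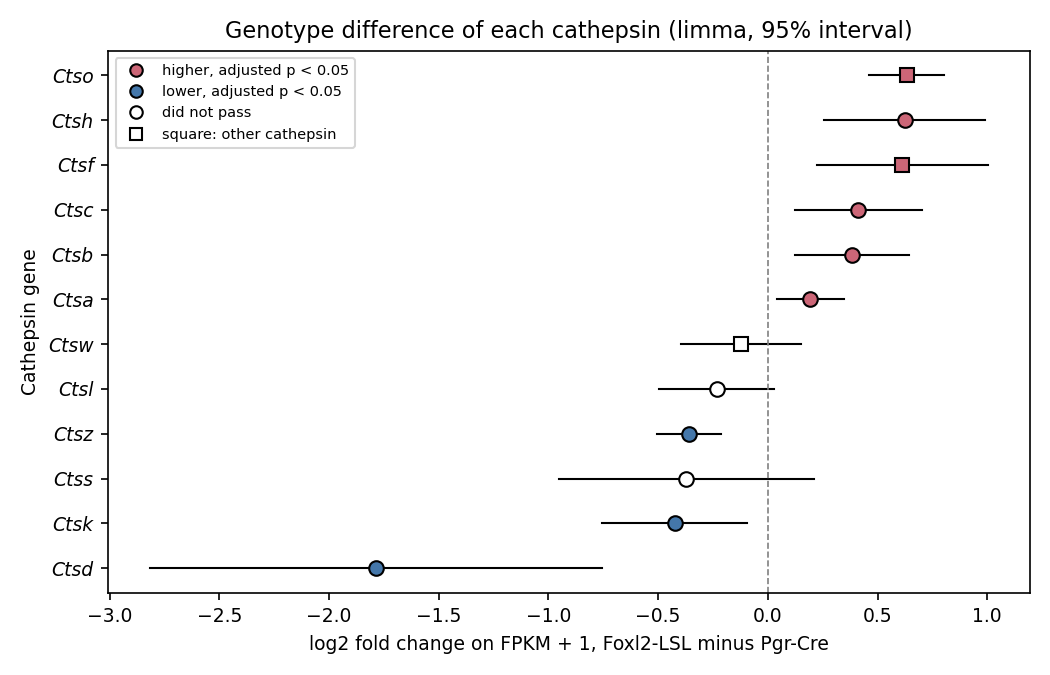
Log2 fold change of FPKM + 1 (Foxl2-LSL minus Pgr-Cre) with its 95% limma interval, for the 9 cathepsins (circles) and the 3 other tested cathepsins (squares). Filled symbols passed an adjusted p of 0.05. Values run from -1.79 for Ctsd to 0.63 for Ctso, and the interval of Ctsd is the widest.

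The order of the levels also differed between the groups. In controls Ctsd was highest and Ctsb second in each of 3 libraries, whereas in Foxl2-LSL Ctsb was above Ctsd in 4 of 4 libraries. The ratio of Ctsd to Ctsb was 2.10, 1.84 and 8.90 in controls and 0.678, 0.713, 0.778 and 0.713 in Foxl2-LSL libraries. Below them came Ctsz, Ctsh, Ctsl, Ctsa, Ctsk, Ctss and Ctsc by mean in controls. The ranges of Ctsz and Ctsh, of Ctsh and Ctsl, and of Ctsk and Ctss overlapped there. Within a library, Ctsz was above Ctsh in 2 of 3 controls and Ctsk above Ctss in 2 of 3, whereas Ctsh was above Ctsl in 3 of 3. In Foxl2-LSL the order was Ctsh, Ctsz, Ctsl, Ctsa, Ctss, Ctsk and Ctsc. There the ranges of Ctsl and Ctsa and of Ctss and Ctsk overlapped, and Ctsh was above Ctsz in 4 of 4 libraries. By fragments, not scaled by length, Ctsb (4743 bases) was above Ctsd (1954 bases) in controls 1 and 2, and below it in control 4.

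Together the 9 transcripts came to 993, 914 and 2068 FPKM in controls and to 806, 660, 774 and 789 FPKM in Foxl2-LSL libraries. Ctsd made up 47.1%, 43.4% and 78.5% of that sum in controls and 24.8% to 28.0% in Foxl2-LSL libraries. Without Ctsd the other 8 came to 526, 518 and 446 FPKM in controls and to 607, 495, 557 and 592 FPKM in Foxl2-LSL libraries, and these ranges overlapped. The difference of the means of all 9 was -568 FPKM with control 4 and -196 FPKM without it. The sums are descriptions with no test.

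**Figure D3:**
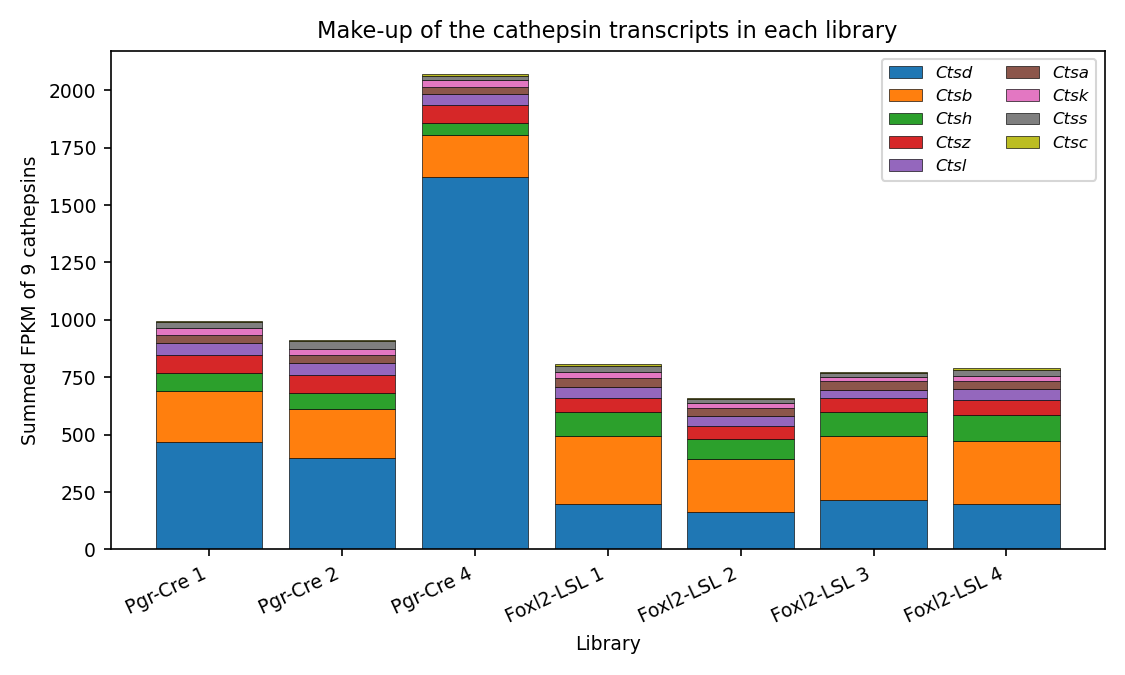
Stacked bars of the FPKM of the 9 cathepsins in each library, from 0. Ctsd (blue, lowest segment) fills 43.4% to 78.5% of the bar in the Pgr-Cre libraries and 24.8% to 28.0% in the Foxl2-LSL libraries, where Ctsb (orange) is the largest segment.

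Ctsd had the highest mean level over all 7 libraries and the largest change of the members, and its pattern over the 7 libraries was compared with that of 9475 genes with a mean of at least 5 FPKM. The most alike by Pearson correlation of log2(FPKM + 1) were Xylt2 (r = 0.996), Hook1 (0.991) and Scara3 (0.989), and 90 genes were above 0.95. These libraries share the gap between the groups and the high control 4, so the values only describe the pattern. Control 4 was the highest library for Xylt2 (14.5 FPKM), Hook1 (16.6) and Scara3 (13.4), and all 3 were far below Ctsd in level.

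Of the 14 other cathepsin genes looked at, 3 were tested, and 2 of these rose, against 16.7% of all tested genes. Ctso, a cysteine protease of the papain family, rose from 10.1 ± 0.706 to 16.2 ± 0.842 FPKM (log2 fold change 0.63; limma, adjusted p 0.000897), and it was called in all 19 alternatives. Ctsf was at 12.5, 13.7 and 13.3 FPKM in controls and at 17.8, 28.4, 21.5 and 16.7 FPKM in Foxl2-LSL libraries (log2 fold change 0.61; limma, adjusted p 0.0225), and its call was lost without control 1, control 2 or Foxl2-LSL 3. Ctsw, a cathepsin of cytotoxic lymphocytes, was at 2.35 ± 0.509 and 2.06 ± 0.140 FPKM and was not called. Ctse and Ctsg were below 1 FPKM in every library, and 6 genes of the placental cathepsin cluster were listed at 0 throughout.

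Among cathepsin inhibitors, 3 of 9 tested genes rose and 2 fell, against 16.7% and 23.9% of all tested genes. Their median log2 fold change was 0.13. Without control 2 the count that rose was 1, and without any 1 Foxl2-LSL library the count that fell was 1. Cst3, which encodes the secreted inhibitor cystatin C, rose from 157 ± 12.0 to 199.2 ± 6.16 FPKM (log2 fold change 0.34; limma, adjusted p 0.00954). The ratio of the 7 cysteine cathepsins, summed, to Cst3 was 3.29, 2.84 and 2.75 in controls and 2.75, 2.40, 2.58 and 2.77 in Foxl2-LSL libraries, with overlap. Cstb, the inhibitor inside the cell, was at 79.9 ± 6.21 and 79.2 ± 11.5 FPKM and was not called. Ctla2a and Ctla2b, which resemble the inhibitory propeptide of cathepsin L and share much of their sequence, both fell. Ctla2a was at 49.2, 54.3 and 231 FPKM in controls and at 38.4, 21.7, 28.2 and 30.0 FPKM in Foxl2-LSL libraries, so it was high in control 4 as Ctsd was. Its log2 fold change was -1.53 (limma, adjusted p 0.0453), and the call was lost without any 1 of the 4 Foxl2-LSL libraries. Without control 4 it was -0.81 with an adjusted p of 0.0154 (limma). Reads shared by these close copies cannot be judged from the table.

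Other lysosomal genes were also called in both directions, as genes in general were (16.7% of all tested genes higher and 23.9% lower). Of 42 lysosomal hydrolases and their cofactors, 6 rose and 14 fell, with a median log2 fold change of -0.09. The counts depended on single libraries: 5 rose and 8 fell without control 1, 4 and 6 without control 2, 3 and 6 without Foxl2-LSL 3, and 3 and 8 without Foxl2-LSL 4. Under quantile normalization and under median centring the split was 8 higher and 8 lower. Both scalings moved the share of higher genes among all called genes too, from 41.1% to 49.2% and 50.4%. Lipa, the acid lipase, fell from 14.7 ± 5.15 to 7.81 ± 0.908 FPKM (log2 fold change -0.79; limma, adjusted p 0.0170), and control 4 was its highest library at 20.5 FPKM. Sgsh, a heparan sulfatase, had a log2 fold change of -0.59 (limma, adjusted p 0.00185). Lgmn, which encodes legumain, a protease that processes several cathepsins, was at 29.2 ± 3.26 and 25.7 ± 4.46 FPKM and was not called.

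Of 30 tested genes of the lysosomal membrane and proton pump, 2 rose and 7 fell (median log2 fold change -0.05). The shares over all tested genes were 16.7% higher and 23.9% lower. The list counts were 6 and 5 under quantile normalization and 3 and 4 under median centring. With 1 library left out at a time, 1 to 5 rose and 3 to 6 fell, and Foxl2-LSL 2 was the library without which more rose (5) than fell (3). Cd63, a membrane protein of late endosomes, fell from 309 ± 30.1 to 199.9 ± 9.77 FPKM (log2 fold change -0.62; limma, adjusted p 0.00184). Atp6v1a, the catalytic subunit of the proton pump, was at 27.9 to 32.9 FPKM in controls and rose to between 42.1 and 55.2 FPKM in Foxl2-LSL libraries (log2 fold change 0.71; limma, adjusted p 0.00228). Clcn7, the chloride-proton exchanger of lysosomes, had a log2 fold change of -0.54 (limma, adjusted p 0.00190).

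In the list of sorting receptors and transcription factors, 1 of 15 tested genes rose and 2 fell, against 16.7% and 23.9% of all tested genes. Tfeb rose from 3.77 ± 0.375 to 5.60 ± 0.321 FPKM (log2 fold change 0.47; limma, adjusted p 0.00420). Igf2r, the large mannose 6-phosphate receptor, fell from 20.1 ± 2.01 to 16.0 ± 0.877 FPKM (log2 fold change -0.31; limma, adjusted p 0.0211), with the call lost without control 1, control 2 or Foxl2-LSL 3. M6pr, the smaller receptor, was at 68.1 ± 9.35 and 86.1 ± 8.99 FPKM and was not called (limma, adjusted p 0.0585), and it passed the threshold in 5 of the alternatives. Gga2, an adaptor that carries these receptors from the Golgi, had a log2 fold change of -0.44 (limma, adjusted p 0.00749). The count called lower was 5 of 15 without control 4 and 1 without control 2 or Foxl2-LSL 3. The count called higher was 2 without Foxl2-LSL 2. With array weights 3 were called higher and 8 lower.

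**Figure D4:**
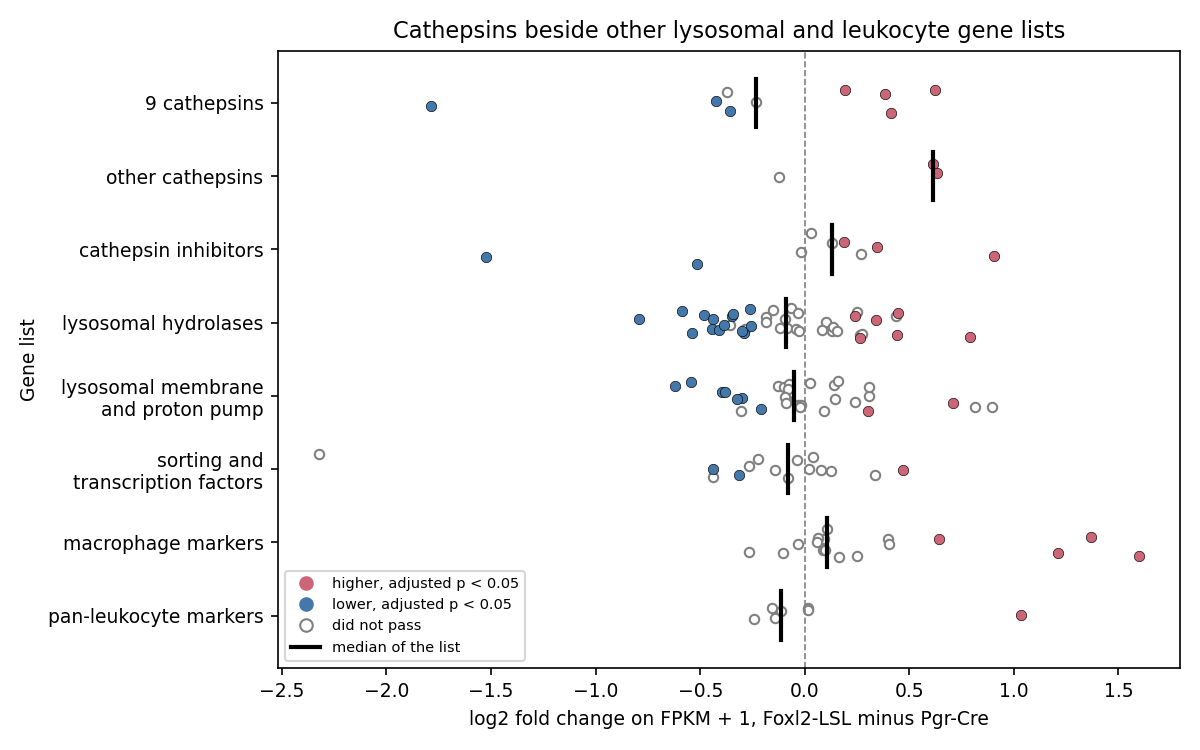
Log2 fold change of FPKM + 1 (Foxl2-LSL minus Pgr-Cre) of each tested gene in 8 lists, with called genes filled (red higher, blue lower) and a black bar at the median of each list. Called genes lie on both sides of 0 among the 9 cathepsins, inhibitors, hydrolases, membrane genes and sorting genes. They lie on the higher side alone for other cathepsins, macrophage markers and pan-leukocyte markers.

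Because the RNA came from whole uterus, fewer cells of a type and less RNA per cell cannot be told apart. Ctsc, Ctss and Ctsz are abundant in macrophages, and 4 of 17 tested macrophage markers rose and 0 fell (median log2 fold change 0.11). Over all tested genes 16.7% were called higher and 23.9% lower. The other 13 macrophage markers were not called, with log2 fold changes from -0.27 (Mertk) to 0.40 (Fcgr3). The macrophage markers summed to 212 to 304 FPKM in controls and 279 to 339 FPKM in Foxl2-LSL libraries, with none of the 18 listed at 0 in all libraries. Mrc1 rose from 2.63 ± 0.590 to 8.33 ± 0.864 FPKM (log2 fold change 1.37; limma, adjusted p 0.000411) and Csf1r from 8.47 ± 1.23 to 13.8 ± 1.95 FPKM (0.64; adjusted p 0.00691). Adgre1, at 4.28 ± 0.785 and 5.95 ± 1.09 FPKM, and Cd68, at 12.5 ± 3.35 and 23.6 ± 8.95 FPKM, were not called. Ptprc, present on all leukocytes, was at 3.65 ± 1.41 and 3.07 ± 0.340 FPKM and was not called, and 1 of 7 pan-leukocyte markers, Laptm5, rose. Antigen presentation markers, relevant to Ctss, summed to 202 to 392 FPKM in controls and 393 to 458 FPKM in Foxl2-LSL libraries. Of 7 tested, 3 rose and 1 fell. The count that rose was 6 without control 2, 1 without Foxl2-LSL 2 or 4, and 0 without Foxl2-LSL 3 (limma). The antigen presentation sum was higher in every Foxl2-LSL library than in any control, but only barely. Foxl2-LSL 1 was at 393.0 FPKM and control 2 at 392.3 FPKM. Ctss overlapped. Of 8 tested granulocyte, mast and lymphoid cell markers, 1 rose and 1 fell, and the fall lost its call when any library but control 1 was left out. The part of these cells in the values of Ctsc, Ctss and Ctsz was not tested.

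The marker counts of other compartments stand beside all tested genes, of which 16.7% were called higher and 23.9% lower. Epithelial markers summed to 868 to 1670 FPKM in controls and 1304 to 2057 FPKM in Foxl2-LSL libraries, with 3 of 11 higher and 0 lower. The count was 5 without control 1 and 1 without control 2, control 4, Foxl2-LSL 1 or Foxl2-LSL 4. Control 4 was the lowest control in this sum, as it was for Ctsa, Ctsb, Ctsh, Ctsk, Ctsl and Ctss. Gland markers summed to 66.9 to 96.7 FPKM in controls and 20.05 to 25.02 FPKM in Foxl2-LSL libraries, with 3 of 4 tested genes lower. Control 4 had the lowest gland sum of the controls, but the tested gland markers differed there. Among controls it was lowest for Aldh1a1 (22.6 FPKM against 68.9 and 55.8) and Lif (0.811 FPKM). It was narrowly highest for Foxa2 (6.57 FPKM against 4.6 and 6.0) and Cxcl15 (31.4 FPKM against 21.9 and 30.2). Stroma markers summed to 1266 to 2399 FPKM in controls and 1757 to 2009 FPKM in Foxl2-LSL libraries, with 1 of 11 higher and 5 lower. Endothelium markers summed to 141 to 185 FPKM in controls and 111 to 125 FPKM in Foxl2-LSL libraries, with 2 of 8 higher and 5 lower. Among controls, number 4 was highest in the stroma and endothelium sums, and also in the smooth muscle and the adipocyte and blood sums below. It was highest for Ctsd too, and narrowly for Ctsz (79.3 FPKM). Smooth muscle markers summed to 966 to 1839 FPKM in controls and 1672 to 2112 FPKM in Foxl2-LSL libraries, with 3 of 9 higher and 0 lower, and 9 of 9 higher without control 4. Adipocyte and blood markers summed to 2.44 to 54.9 FPKM in controls and 3.69 to 149.7 FPKM in Foxl2-LSL libraries, highest in Foxl2-LSL 2 and 3, the libraries lowest in Ctss. Osteoclast markers, looked at because of Ctsk, summed to 6.66 to 13.6 and 13.1 to 19.1 FPKM, and neither of the 2 tested was called. The part of these compartments in the cathepsin values was not tested.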

How the data were processed

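RNA was extracted with TRIzol and sequenced after standard Illumina library preparation, per the labels' protocols. The authors deposited FPKM values for 24964 gene symbols in 1 table, with 1 column per library, and another value, the gene length in bases, per the file headers. The submitters' processing notes name STAR 2.5.2b, featureCounts 1.5.0-p1 and the build mm10 (GRCm38). Annotation, strand use and filters are not given in the sources used here.

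Fragments were recovered from FPKM, length and the step between low values (genes up to 1500 bases). In each library 100% of 1320 to 1456 low values lay within 0.1 of a whole number. The denominators were 47800000 to 67300000 fragments, and at least 1000 fragments lay on each member in each library. Counting errors cover counting only.

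Log2(FPKM + 1) was compared with limma 3.58.1 in R 4.3.3 (intensity trend, no block), with Benjamini-Hochberg adjustment over 13334 genes whose FPKM averaged 1 or more. The fold changes understate those of low genes. Single values had a two-sided exact permutation test over 35 splits (scipy 1.17.1). Positions came from GENCODE M21. Groups and replicate numbers came from the sample titles.

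All 9 members were described. From the 16 gene lists, all tested cathepsins, genes of fixed roles and up to 4 called genes with the largest change were eligible to be named. Members and lists were chosen with earlier results of these data known. Alternatives changed the scaling, pseudocount, filter, limma settings, libraries and block.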

Additional observations from a re-analysis of the deposited data

How the results depend on the processing

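All 9 members kept their direction under the 19 alternatives, of which 18 are distinct, and Ctsl and Ctss passed the threshold in none of them. The count of members called higher was 4 in the comparison as reported, 2 with no filter on low values, 0 with the replicate block and 1 on the libraries numbered 1, 2 and 4 with no block. With 1 library left out at a time it was 1 to 4. The count called lower was 2 or 3 throughout. With no filter, the calls of Ctsb (0.38), Ctsc (0.41) and Ctsk (-0.42) were lost. Ctsa lost its call with a mean FPKM of at least 5 (0.19), without the intensity trend (0.19) and in limma-voom on recovered fragments (0.20). Ctsk lost it with quantile normalization (-0.37), median centring (-0.37) and without the trend (-0.42). The cause of these losses was not tested.

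With 1 library left out at a time, the log2 fold change was 0.17 to 0.22 for Ctsa, 0.29 to 0.45 for Ctsb, 0.28 to 0.50 for Ctsc, 0.44 to 0.76 for Ctsh and -0.53 to -0.31 for Ctsk. It was -2.16 to -1.15 for Ctsd, smallest without control 4, and -1.21 with array weights, a fit whose weights did not fully converge. The log2 ratio of Ctsk to Ctss differed between the groups by -0.05, and by -0.26 to 0.10 in those fits, so its direction is not settled.

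The labels do not say that shared replicate numbers pair animals. The deviations of same-numbered libraries had r = 0.228 for number 1, -0.0588 for 2 and -0.0587 for 4. Differently numbered libraries ranged from -0.244 (control 4 with Foxl2-LSL 1) to 0.219 (control 4 with Foxl2-LSL 2). The value for number 1 was thus little above that of an unmatched pair. With the replicate block, 3243 of 13334 genes passed, against 5409 in the comparison as reported and 3975 on the same 6 libraries with no block. The block gave Ctsa 0.19, Ctsb 0.37, Ctsc 0.40, Ctsh 0.62 and Ctsk -0.31, none past the threshold, and the same 6 libraries without it gave the same values with Ctsh called.

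Among other named genes, Foxl2, Cstb and Ptprc changed direction without being called. Foxl2 was -0.15 with array weights and -0.10 to 0.28 with 1 library left out (-0.10 without control 1, -0.013 without Foxl2-LSL 4). Cstb was 0.042 with quantile normalization, 0.032 with median centring, 0.058 with array weights and -0.097 to 0.070 with 1 library left out (0.037 without control 1, highest without Foxl2-LSL 2). Ptprc was -0.32 to 0.079 with 1 library left out, above 0 without control 2. The list counts under the alternatives were added after seeing the data.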
